A study of Mus musculus with 6 samples.

Results

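The bZIP transcription factors are the genes that the deposited annotation of transcription factor families places in the bZIP family, and 7 of the 2031 deposited genes carry that label: Creb3l2, Atf7, Batf3, Maf, Mafa, Bach2 and Hlf. RNA was sequenced from cells differentiated from mouse embryonic stem cells (line J1, strain 129S4/SvJae), which had been induced towards heart muscle by the hanging drop method and formed embryoid bodies in 3 days. The 3 NC libraries come from cells in a conventional incubator and the 3 MF libraries from cells in a static magnetic field incubator; all libraries share the line and the differentiation scheme. The labels state neither the strength of the field, nor the time of exposure, nor the day on which cells were collected. Both groups come from 1 line, the series calls the libraries biological triplicates, and no label ties a replicate number to a shared batch.

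The authors deposited only genes that they had called as differing between MF and NC. In their table no adjusted p is above 0.0499 and no log2 fold change is nearer 0 than 1.0, in either direction, so the fold changes reported below, read from the same libraries, start at about that size. The 7 genes were therefore in the table because they differed, and the difference itself is given below as a description. Of all deposited genes 63.2% were higher in MF. The other 46 bZIP genes among the 53 listed here, Fos, Jun, Atf3, Atf4, Creb1, Cebpa and Nfe2l2 among them, lie outside that selection and were not analysed here.

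bZIP factors bind DNA as dimers. A stretch rich in basic residues lies in the major groove, and a helix with leucines at regular spacing, the leucine zipper, holds both partners together, so that the choice of partner sets the site that is bound. The family includes the AP-1 factors, which answer growth and stress signals, the CREB and ATF factors, the MAF factors of lens, islet and immune cells, and the PAR factors linked to the clock.

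The coding sequence of this domain is shown for 6 of the genes because it is what they have in common and what sets them apart. Each line holds 120 bases, or 40 codons, read 5′ to 3′ from the longest annotated coding transcript (GENCODE M21, mm10). Capitals mark the 9 codons of the basic signature at the start, searched with any residue allowed at the fourth codon, and every leucine codon found at the 4 heptad positions that follow it.

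Creb3l2: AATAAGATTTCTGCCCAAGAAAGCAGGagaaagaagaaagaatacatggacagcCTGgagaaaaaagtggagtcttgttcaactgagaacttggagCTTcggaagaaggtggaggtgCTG
Atf7: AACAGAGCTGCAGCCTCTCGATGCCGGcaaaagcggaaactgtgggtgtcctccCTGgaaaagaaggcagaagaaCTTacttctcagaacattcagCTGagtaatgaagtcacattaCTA
Batf3: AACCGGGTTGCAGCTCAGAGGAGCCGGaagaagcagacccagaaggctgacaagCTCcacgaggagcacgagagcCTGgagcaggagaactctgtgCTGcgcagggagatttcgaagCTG
Maf: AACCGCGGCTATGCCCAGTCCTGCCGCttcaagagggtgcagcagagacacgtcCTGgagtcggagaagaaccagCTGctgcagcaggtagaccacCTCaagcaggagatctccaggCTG
Bach2: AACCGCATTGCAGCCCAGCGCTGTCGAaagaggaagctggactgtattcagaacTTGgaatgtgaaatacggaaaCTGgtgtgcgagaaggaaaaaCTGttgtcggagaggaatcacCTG
Hlf: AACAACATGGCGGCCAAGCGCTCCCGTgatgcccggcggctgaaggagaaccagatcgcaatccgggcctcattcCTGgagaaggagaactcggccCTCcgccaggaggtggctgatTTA

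The search required asparagine at the first codon, alanine at the fifth, cysteine or serine at the eighth and arginine at the ninth. These residues were thus fixed in advance for all 6 stretches. The fourth codon of the signature divides them: it is alanine in Atf7, Batf3, Bach2 and Hlf, serine in Creb3l2, and tyrosine in Maf. Creb3l2 and Maf thus fit the looser form of the signature alone, and a search that asks for alanine there finds the other 4. Leucine fills all 4 heptad positions in Atf7, Batf3, Maf and Bach2, and 3 of 4 in Creb3l2 and Hlf. Hlf and Batf3 share 62 of the 120 bases (51.7%), the closest of these pairs, and Maf and Hlf share 47 (39.2%), as do Creb3l2 and Maf and Creb3l2 and Hlf, the least alike. In Maf and Hlf the stretch lies within 1 exon, and in Creb3l2 it begins in exon 6 and ends in exon 8.

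Of these genes 6 were higher in MF and Mafa was lower, and in none of them did the NC and MF libraries overlap. Creb3l2, Batf3 and Maf were the most abundant in MF, and Hlf was low in both groups. The level of a gene is given as FPKM, the count scaled to gene length and to the library total, so that levels can be set beside each other across genes. Of the members, 6 passed the filter on low values (mean FPKM over all libraries of 0.5 or more) and were tested; Mafa was the lowest of them at 1.65, and Hlf, at 0.330, was not tested.

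In edgeR's quasi-likelihood test (Benjamini-Hochberg adjustment over 1651 tested genes, threshold 0.05), 5 of the 6 tested members rose and 1 fell. The same test called 97.5% of all tested genes, 62.1% as higher and 35.4% as lower, so a call of every tested member is what the selection gives. "Rose" and "fell" are used below in that sense alone. The groups did not overlap for 92.5% of the tested genes and for 6 of the 6 tested members. The members had a median log2 fold change of 1.32, beside 1.22 over all tested genes. Among genes above 0 the members' median was 1.33 and that of all tested genes 1.62. The authors' adjusted p-values imply that they had made 19069 tests. Adjusted over that number, edgeR called 0 members and 0.00% of the tested genes, although 1613 genes had unadjusted p-values below 0.05. DESeq2, adjusted in the same way, called Creb3l2 and Atf7 (adjusted p = 0.0101 and 0.0430) among 36.2% of the tested genes. With the replicate number as a block, edgeR called Creb3l2 and Maf over those tests (adjusted p = 0.0410 and 0.0378) among 30.5% of the tested genes.

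**Figure D1:**
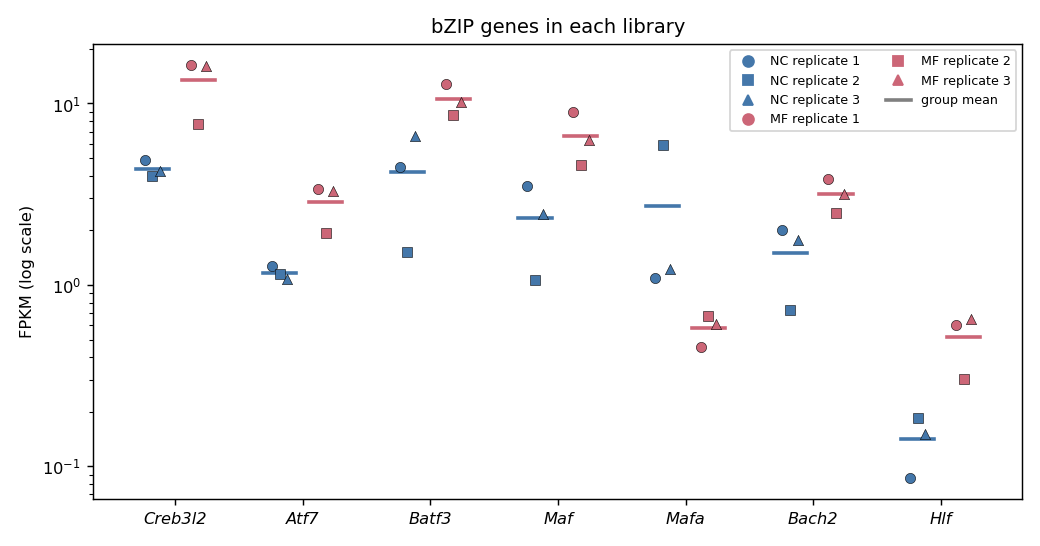
Level of each bZIP gene in each library, as FPKM on a log scale; points are libraries (circle, square and triangle for replicates 1, 2 and 3) and bars are group means. The MF points lie above the NC points for 6 genes and below them for Mafa, and the NC replicate 2 square stands apart for Batf3, Maf, Mafa and Bach2.

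Creb3l2 and Atf7 belong to the CREB and ATF branch. Creb3l2 encodes a factor that is anchored in the membrane of the endoplasmic reticulum, released by cleavage, and known in mouse cartilage for raising the capacity to secrete matrix. Creb3l2 (ENSMUSG00000038648, mm10 chromosome 6, 37327255 to 37442146, minus strand) stood at 4.89, 3.96 and 4.23 FPKM in NC replicates 1 to 3 and at 16.4, 7.76 and 16.0 FPKM in MF replicates 1 to 3. The NC libraries lay close together, and MF replicate 2 lay between them and the other MF libraries. Its mean rose 3.07-fold, with 4.36 ± 0.479 FPKM in NC and 13.4 ± 4.88 in MF (SD, n = 3; log2 fold change 1.62 with SE 0.41, edgeR adjusted p = 0.0189). The rise passed without any single library except MF replicate 3, where the adjusted p was 0.0820 with a log2 fold change of 1.47.

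Atf7 encodes a relative of ATF2 that binds cAMP response elements. Atf7 (ENSMUSG00000099083, mm10 chromosome 15, 102525946 to 102625464, minus strand) stood at 1.27, 1.15 and 1.07 FPKM in the NC libraries and at 3.37, 1.93 and 3.29 FPKM in the MF libraries. It followed the order of Creb3l2 in MF, with replicate 2 lowest. The mean rose 2.46-fold, with 1.16 ± 0.101 FPKM in NC and 2.87 ± 0.808 in MF (SD, n = 3; log2 fold change 1.30 with SE 0.40, edgeR adjusted p = 0.0243). The call was lost without NC replicate 1, NC replicate 3, MF replicate 1 or MF replicate 3, with edgeR adjusted p-values of 0.0571, 0.0569, 0.0794 and 0.0935. A gene annotated as protein-coding on the same strand, Gm28047, shares 1284 of the 10988 exon bases of Atf7 (11.7%), so reads there could be assigned to either or to neither. The spread of Creb3l2 and Atf7 in NC was small, with coefficients of variation of 11.0% and 8.69%. Creb3l2 stood at 3.46 to 3.94 times the FPKM of Atf7 in the NC libraries and at 4.01 to 4.87 times in the MF libraries.

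Batf3 is an AP-1 factor that pairs with JUN proteins and is needed for a class of dendritic cells. Batf3 (ENSMUSG00000026630, mm10 chromosome 1, 191097847 to 191108945, plus strand) stood at 4.48, 1.52 and 6.59 FPKM in the NC libraries and at 12.8, 8.65 and 10.2 FPKM in the MF libraries. NC replicate 2 was far below the other NC libraries, and NC replicate 3 came within 1.31-fold of the lowest MF library. Its mean rose 2.52-fold, with 4.19 ± 2.55 FPKM in NC and 10.6 ± 2.12 in MF (SD, n = 3; log2 fold change 1.33 with SE 0.56, edgeR adjusted p = 0.0421). The log2 fold change was 0.93 without NC replicate 2 (adjusted p = 0.0769) and 1.38 without NC replicate 1 (0.0910). Without MF replicate 1 or 3 the adjusted p was 0.112 and 0.104. No FOS, JUN or other BATF gene is in the deposited selection, so the levels of its partners were not analysed here.

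Maf and Mafa, which encode large MAF factors, went in opposite directions. Maf encodes c-MAF, a factor of lens fibre, cartilage, T helper and macrophage cells. Maf (ENSMUSG00000055435, mm10 chromosome 8, 115682942 to 115707794, minus strand) stood at 3.51, 1.07 and 2.46 FPKM in the NC libraries and at 8.99, 4.61 and 6.27 FPKM in the MF libraries. Replicate 2 was the lowest library of each group. Its mean rose 2.82-fold, with 2.35 ± 1.22 FPKM in NC and 6.62 ± 2.21 in MF (SD, n = 3; log2 fold change 1.50 with SE 0.50, edgeR adjusted p = 0.0273). The call was lost without NC replicate 2, MF replicate 1 or MF replicate 3, with edgeR adjusted p-values of 0.0518, 0.0808 and 0.0902. An antisense gene, Gm15655, overlaps 440 exon bases of Maf (5.34%), and the use of strand in counting is not given.

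Mafa encodes the islet beta cell activator of insulin genes. Mafa (ENSMUSG00000047591, mm10 chromosome 15, 75745490 to 75748228, minus strand) stood at 1.10, 5.87 and 1.22 FPKM in the NC libraries and at 0.457, 0.674 and 0.606 FPKM in the MF libraries. NC replicate 2 alone held 259 of the 356 NC counts, while the other NC libraries had 47 and 50 counts and the MF libraries 24, 31 and 27. The mean fell 4.71-fold in edgeR's fit, with 2.73 ± 2.72 FPKM in NC and 0.579 ± 0.111 in MF (SD, n = 3; log2 fold change -2.23 with SE 0.74, adjusted p = 0.0269). Without NC replicate 2 the log2 fold change was -1.0 and the call was lost (edgeR adjusted p = 0.127). Without both replicate 2 libraries it was -1.13 (edgeR adjusted p = 0.0438). The call was also lost without MF replicate 1 (edgeR adjusted p = 0.0659) or MF replicate 3 (0.0935). The FPKM of Mafa was 0.312, 5.49 and 0.497 times that of Maf in NC replicates 1 to 3, and 0.0508, 0.146 and 0.0966 times in MF replicates 1 to 3. Mafa thus exceeded Maf in NC replicate 2 alone.

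Bach2 encodes a repressor with a BTB domain that pairs with small MAF proteins and is known from B cells and regulatory T cells. Bach2 (ENSMUSG00000040270, mm10 chromosome 4, 32238804 to 32586108, plus strand) stood at 2.01, 0.731 and 1.78 FPKM in the NC libraries and at 3.85, 2.50 and 3.18 FPKM in the MF libraries. Its groups came closest of the 7 genes, with the lowest MF library 1.24-fold above the highest NC library. The mean rose 2.11-fold, with 1.51 ± 0.682 FPKM in NC and 3.18 ± 0.674 in MF (SD, n = 3; log2 fold change 1.08 with SE 0.46, edgeR adjusted p = 0.0452). The call was lost without any one library except MF replicate 2, and without NC replicate 2 the log2 fold change was 0.75 (edgeR adjusted p = 0.0886). The edgeR adjusted p was 0.0666 without NC replicate 1, 0.0744 without NC replicate 3, 0.139 without MF replicate 1 and 0.112 without MF replicate 3. Bach2os, an antisense gene, overlaps 537 of its exon bases (5.40%). None of the small MAF genes Maff, Mafg and Mafk, nor Bach1, is in the deposited selection.

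Hlf encodes a PAR factor of liver, blood stem cells and clock output. Hlf (ENSMUSG00000003949, mm10 chromosome 11, 90336536 to 90390895, minus strand) stood at 0.0860, 0.186 and 0.150 FPKM in NC and at 0.601, 0.303 and 0.653 FPKM in MF. These rest on 9, 20 and 15 counts in the NC libraries and 77, 34 and 71 counts in the MF libraries, which do not overlap. In a fit with no filter on low values it was 3.66-fold higher in MF (log2 fold change 1.87 with SE 0.64, edgeR adjusted p = 0.0256 over 1983 genes, of which that fit called 97.7%). Its RefSeq promoter (GRCm38.p6) held the only CRE, the palindrome TGACGTCA of CREB and ATF factors, among the 5 members with a promoter entry, which are Batf3, Bach2, Creb3l2, Hlf and Atf7. The 50 bases around it, on the minus strand, are shown with the CRE in capitals. The CRE begins 9 bases upstream of the start site of that RefSeq entry, which is not the gene start at 90390895.

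Hlf: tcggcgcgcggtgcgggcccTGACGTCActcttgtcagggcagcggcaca

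That motif was found in 1.79% of 32851 RefSeq promoter windows of 300 bases. The other motifs searched, on both strands and with overlaps counted, were the AP-1 site TGANTCA (7.81% of windows), the C/EBP palindrome TTGCGCAA (0.183%), the PAR forms TTACGTAA (0.119%) and TTATGTAA (0.938%), and TGCTGAC from the MAF recognition element (4.67%). None of them was in the 5 windows of the members. The Bach2 window (chromosome 4, 32417185 to 32417484) lies inside the gene, far downstream of the gene start at 32238804. The Batf3 window (chromosome 1, 191098164 to 191098463) also lies inside its gene, nearer to the gene start at 191097847. A match describes these letters and shows no binding.

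In the NC libraries Creb3l2 (mean 4.36 FPKM) and Batf3 (4.19) had the highest mean levels and overlapped each other, followed by Mafa, Maf and Bach2, which overlapped as well. The place of Mafa rests on NC replicate 2 (5.87 FPKM). In NC replicates 1 and 3 (1.10 and 1.22 FPKM) it lay below Maf and Bach2. Atf7 lay within the range of Bach2, and Hlf was lowest and apart from all others. In MF Creb3l2, Batf3 and Maf came first, each overlapping its neighbour. Bach2 and Atf7 followed, overlapping each other and lying below every MF value of Maf, and Mafa and Hlf, which overlapped, were last. The summed level of the 7 genes was 14.5 to 17.5 FPKM in NC and 26.4 to 46.5 FPKM in MF, with Creb3l2 making up 24.2% to 28.2% of it in NC and 29.3% to 39.9% in MF.

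The libraries differed within each group in a way that divided the genes. Creb3l2 and Atf7 varied little in NC, whereas Maf, Batf3 and Bach2 were lowest in NC replicate 2, with coefficients of variation of 52.2%, 60.7% and 45.3%, and Mafa was highest there (99.7%). Hlf, with its few counts, varied by 35.9% in NC and was highest in replicate 2. On the log2(FPKM + 0.1) scale, NC replicate 2 lay at -1.18 relative to the NC mean for Batf3, at -0.92 for Maf, -0.84 for Bach2 and 1.50 for Mafa, against -0.13 for Creb3l2, -0.02 for Atf7 and 0.27 for Hlf. MF replicate 2 reached 0.82 for Creb3l2, beside 1.89 and 1.86 in MF replicates 1 and 3. That is 43.8% of the mean position of the other MF libraries for Creb3l2, 47.7% for Atf7 and 47.4% for Hlf, and between 61.1% and 82.7% for Maf, Bach2, Batf3 and Mafa. Of the MF libraries, replicate 2 had the lowest value for all 5 tested members that rose, as it had for 82.8% of the tested genes higher in MF. NC replicate 2 was the lowest NC library for 4 of those 5, beside 72.1% of the same genes. MF replicate 1 was the highest MF library for all 5, beside 51.9%. The grouping of genes in this paragraph was made after the values had been seen.

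**Figure D2:**
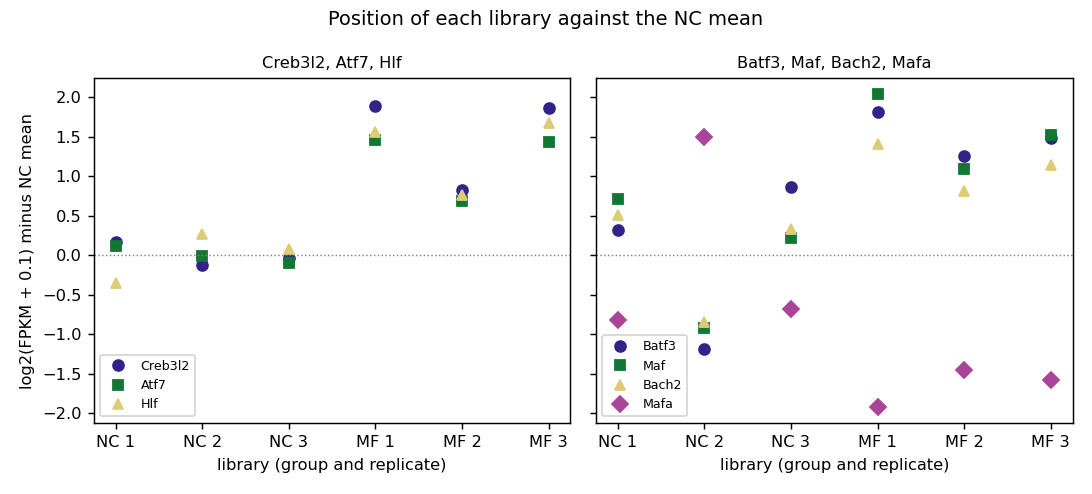
Position of each library on the log2(FPKM + 0.1) scale relative to the NC mean of the same gene, with points as single libraries. In NC, Creb3l2 and Atf7 stay within 0.17 of 0 and Hlf lies between -0.35 and 0.27 (left). Batf3, Maf, Bach2 and Mafa (right) depart from 0 in NC replicate 2, at -1.18, -0.92, -0.84 and 1.50. In both panels MF replicate 2 is the MF library nearest 0 for every gene.

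Markers of other cell types also differed between the libraries, some in the same order as the bZIP genes and some not. Of the 10 listed fibroblast and mesenchyme markers 9 are deposited, with a summed level of 176 to 323 FPKM in NC and 297 to 1397 FPKM in MF. These sums were lowest in replicate 2 of each group, and the groups overlapped. For the cardiomyocyte list (8 of 10 deposited) the sums were 28.7 to 68.4 and 112 to 639 FPKM, again lowest in replicate 2. The 4 deposited of 10 naive pluripotency markers summed to 274 to 750.4 FPKM in NC and to 65.5 to 185 FPKM in MF. The 6 deposited of 8 germ cell markers summed to 40.3 to 172 and 3.41 to 15.9 FPKM. Both lists were highest in replicate 2 of each group. The 3 deposited of 8 genes listed for trophoblast are Cdx2, Hand1 and Gata3, which alone do not identify that cell type. They summed to 27.5 to 57.8 FPKM in NC and 65.7 to 152 FPKM in MF, lowest in replicate 2 of each group. Others did not follow that order. The 5 deposited of 8 endothelial markers also overlapped between the groups, at 12.4 to 42.8 FPKM in NC, highest in replicate 2, and 21.9 to 41.3 FPKM in MF, lowest in replicate 2. Csf1r is the only deposited myeloid marker of 8, at 1.01 to 1.72 FPKM in NC, highest in replicate 2, and 2.75 to 3.55 FPKM in MF, where replicate 2 (2.94) was not the lowest. The only deposited neural marker of 8, Dcx, stood at 0 to 0.0794 FPKM in NC and 0.144 to 1.62 FPKM in MF, highest in replicate 2. No erythroid, visceral endoderm or hepatocyte marker was deposited. No deposited marker was at 0 in all libraries. The part of these cell types in the values of the bZIP genes was not tested, and in bulk RNA fewer cells of a type and less RNA per cell cannot be told apart.

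Genes of pathways that bZIP factors act in were counted from lists. Outside the bZIP genes themselves, 19 listed genes were deposited and tested, of which 9 rose and 8 fell. Of all tested genes 62.1% rose and 35.4% fell, so a call of most listed genes is what the selection gives. Of the 17 genes listed for CREB3L1 and CREB3L2, which cover collagen and its secretion, 4 were deposited and 3 rose. Col1a1 and Col1a2, the chains of type I collagen, rose 3.41-fold and 3.40-fold, and Cthrc1, a secreted matrix protein, rose 2.66-fold. The collagen chaperone Serpinh1 did not pass, with 242 ± 109 FPKM in NC and 518 ± 172 in MF (SD, n = 3; edgeR adjusted p = 0.0565). Col1a1 stood at 192, 67.6 and 89.3 FPKM in the NC libraries and at 615, 127 and 448 FPKM in the MF libraries, so MF replicate 2 lay below NC replicate 1 and the groups overlapped. They overlapped for Col1a2 too, with 30.6 FPKM in MF replicate 2 and 36.7 in NC replicate 1. Col1a1 and Col1a2 are also 2 of the 9 deposited fibroblast and mesenchyme markers, so the list and those markers are not separate counts. None of the 17 targets of XBP1 and ATF6 in the unfolded protein response was deposited.

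All 3 deposited antioxidant targets of NFE2L2, of 20 listed, fell: Abcc4, an efflux pump, 2.96-fold, Gsta4, a glutathione transferase, 2.56-fold, and Nqo1, a quinone reductase, 2.37-fold. For Abcc4 the groups overlapped, with 3.63 FPKM in MF replicate 2 and 3.62 in NC replicate 3. These 3 genes stand beside 35.4% of all tested genes that fell, and the other listed targets were not analysed here. Among 20 targets of ATF4 and CHOP 3 were deposited. Vldlr, a lipoprotein receptor, rose 5.37-fold, while the stress factor Nupr1 fell 2.37-fold and the cystathionine enzyme Cth fell 2.20-fold. Of 22 immediate early genes and AP-1 targets the receptor Cd44 rose 2.66-fold and Spp1, osteopontin, fell 3.31-fold. Of 18 clock genes Per2 rose 2.44-fold, Ciart fell 3.04-fold, and Bhlhe41 did not pass (0.532 ± 0.0507 FPKM in NC and 1.07 ± 0.265 in MF, SD, n = 3; edgeR adjusted p = 0.0671).

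Of 18 C/EBP targets 4 were deposited. Pparg, the master factor of fat cells, rose 3.31-fold, the iron carrier Lcn2 rose 3.21-fold and the lipase Lpl rose 2.21-fold, while the acute phase gene Saa3 fell 3.68-fold.

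**Figure D3:**
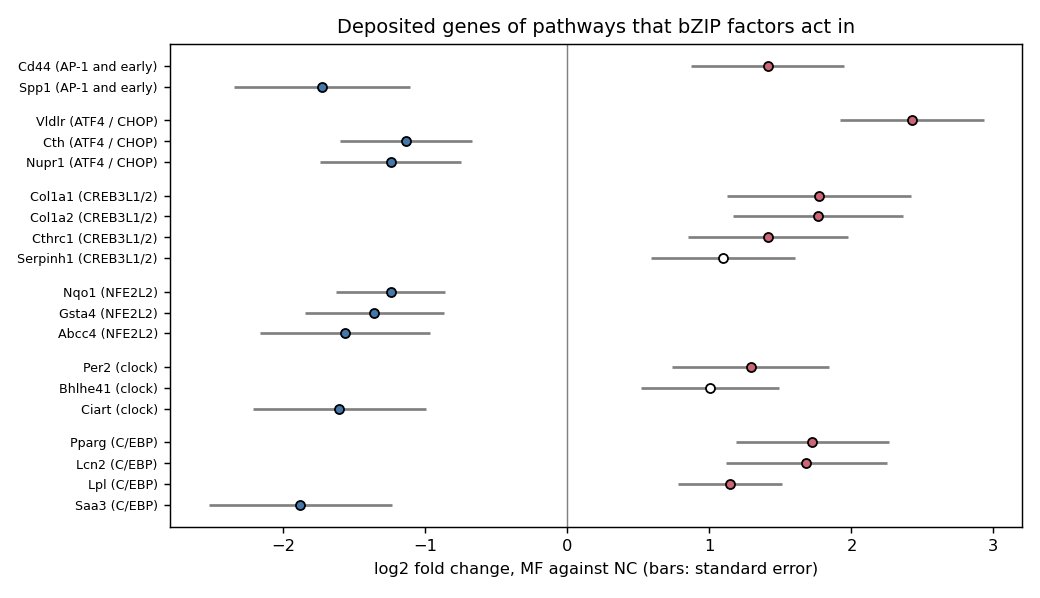
Log2 fold change of MF against NC for the 19 deposited pathway genes, with bars for the standard error and the list in brackets; red points passed as higher, blue points as lower, and white points did not pass. The CREB3L1 and CREB3L2 genes lie above 0 and the NFE2L2 genes below 0, and the other lists have genes on both sides.

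Scaling moved the 5 members that rose more than any other choice did. Scaling over the deposited genes alone, which are mostly higher in MF, moved the median of all tested genes by -0.70 with TMM and by -1.05 with median-of-ratios factors. Creb3l2 then stood at 0.88 and 0.49, Maf at 0.82 and 0.47, Batf3 at 0.68 and 0.36, Atf7 at 0.56 and 0.18, and Bach2 at 0.41 and 0.07. None of these 5 passed, where 53.3% and 40.3% of all tested genes did, and all kept their sign. The shift is downward, so it moved Mafa, which was already lower, further from 0. Mafa stood at -3.05 and -3.44 and passed both times (edgeR adjusted p = 0.0271 and 0.0379), which is no separate support for its fall.

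The calls that were lost when a library was left out stand against calls lost over the whole table. Without NC replicates 1, 2 and 3, edgeR called 38.8%, 44.5% and 61.3% of the tested genes, and 3, 2 and 4 of the 6 members. Without MF replicates 1, 2 and 3 it called 27.1%, 95.6% and 0.727%, and 1, 6 and 0 members. Without both replicate 2 libraries it called 97.5% and all 6 members, with log2 fold changes of 1.83 for Creb3l2, 1.50 for Atf7, 1.35 for Maf, 1.06 for Batf3 and 0.89 for Bach2. Creb3l2 was the member that kept its call in the most of these 7 settings, all but the one without MF replicate 3.

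**Figure D4:**
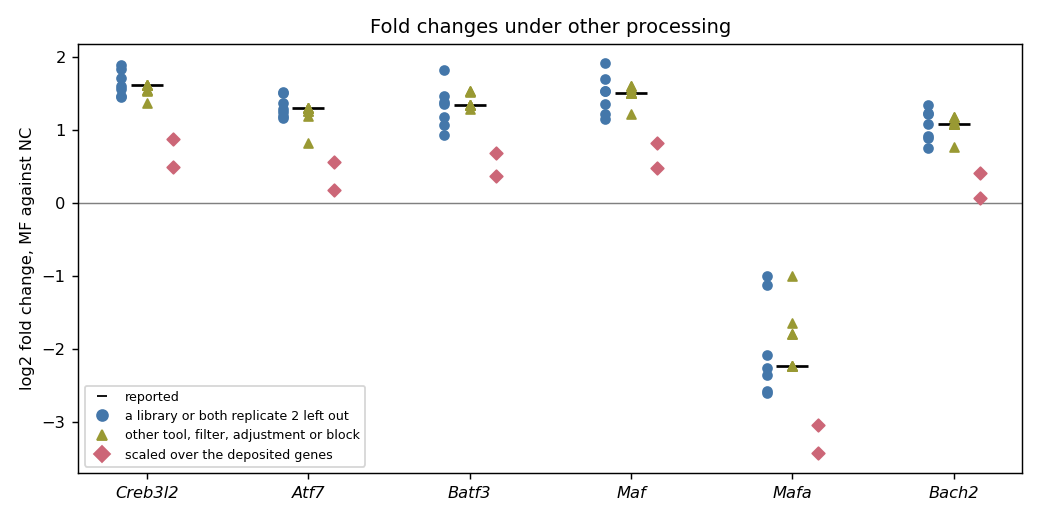
Log2 fold change of MF against NC for the 6 tested bZIP genes under each alternative; the black line is the reported value, circles leave out libraries, triangles change the tool, filter, adjustment or block, and diamonds scale over the deposited genes. All values keep their sign; the groups do not overlap for these genes, so the circles could not change sign. The diamonds lie nearest 0 for the 5 genes that rose, and Mafa is nearest 0 without NC replicate 2 (-1.0).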

How the data were processed

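Poly-A RNA, per the labels' protocols, was sequenced for all 6 libraries. The submitters' processing notes name HISAT2 2.0.5, featureCounts and the build mm10. Settings, strand use and the tool of the authors' comparison are not stated there. Per the file headers, the authors deposited for each gene a raw count, an FPKM and a normalized signal. Their comparison is deposited beside these as a log2 fold change with a p-value, raw and adjusted. In the authors' deposited table the members' adjusted p-values ran from 7.89e-05 (Creb3l2) to 0.0453 (Bach2), within a selection that ends at 0.0499.

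Library totals were recovered from count, gene length and FPKM. They were 14929232 to 19176383 counts, and the deposited genes took 5.68% to 10.4% of them. The authors' normalized signal divides each count by a factor of 0.916 (NC replicate 3) to 1.18 (MF replicate 1). These factors were in proportion to the recovered totals. A floor of 3 counts is 0.156 to 0.201 FPKM for a gene of 1 kb and covers counting error alone. Rows with no gene name (48, at most 0.0390% of a library) were left out. edgeR 4.0.16 (R 4.3.3) was fitted to the counts of 1651 named genes that averaged 0.5 FPKM or more, using the recovered totals and a single term for group, two-sided. The SE is the log2 fold change divided by the root of F. Alternatives used limma 3.58.1, DESeq2 1.42.0, other scalings, filters and adjustments, a block for replicate number, and fits that leave out libraries. The figure of 19069 tests was derived from the authors' p-values at their top 30 ranks. Those ranks were counted among the deposited genes. In the adjustment, ranks were counted among the tested genes alone, which makes the adjusted p-values over that number upper bounds. The fit was also run on simulated counts, which were set to spread less than these libraries (common biological coefficient of variation 0.506). That run does not show how the fit behaves at the spread of these data.

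Same-numbered libraries deviated together across genes (r = 0.39, 0.55 and 0.32 for numbers 1, 2 and 3) and were taken as pairs for the block, although NC replicate 3 and MF replicate 1 also did (0.54). Libraries of a group differed by more than sampling noise (chi-square over degrees of freedom 23.1 to 279). All members are named, with full statistics for those called that averaged at least 1 FPKM in the higher group, and up to 4 called genes of each list. One list of target genes and 1 coding stretch are not reported here. Members and lists were chosen with earlier results of these data known.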

Additional observations from a re-analysis of the deposited data

How the results depend on the processing

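The tested members kept their direction in every alternative that tested them, which was largely fixed in advance. Their groups did not overlap, so leaving out libraries could not reverse them, and a changed adjustment alters no fold change. With median-of-ratios scaling Bach2 kept its sign at a log2 fold change of only 0.07 (edgeR adjusted p = 0.904). The number of members called higher, 5, was 0 with TMM, 0 with median-of-ratios scaling and 0 with adjustment over the recovered tests, and 2 over those tests with DESeq2 or with the replicate block. The number called lower, 1, was 0 in the last 3 of these settings and 0 with a filter at 2 FPKM, which removes Mafa. Leaving out 1 library gave 0 to 5 members higher and 0 to 1 lower, with the fewest calls without MF replicate 3. The median log2 fold change of 1.32 became 0.62 with TMM and 0.27 with median-of-ratios scaling. Both scale over the deposited genes alone, which are mostly higher in MF, and the cause of the shift was not tested. In the pathway lists without the members, 9 genes rose and 8 fell; with TMM 1 rose and 8 fell, with median-of-ratios scaling 0 and 7, over the recovered tests 0 and 0, with DESeq2 over those tests 2 and 1, and with the replicate block over those tests 3 and 2. Leaving out 1 library gave 0 to 11 higher and 0 to 8 lower. The replicate block adjusted over the tested genes changed no call of a member (median log2 fold change 1.39; 5 higher and 1 lower), nor did leaving out both replicate 2 libraries (5 and 1). That last setting, and the 2 fits over recovered tests with DESeq2 or the block, were chosen after the data had been seen. Over the recovered tests the p-values and fold changes of each fit stayed the same, and only the number of tests in the adjustment differed. Where a call was lost in another setting, apart from Mafa under the filter that removes it, the cause was not tested. Hlf, with 44 counts over NC, is limited by depth.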
